A study of Mus musculus with 12 samples.

Results

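Genes that cells switch on to copy their DNA and to divide were examined in mouse liver tumours. In the knockout tumours, Cre in hepatocytes was aimed at Miz1, or at only its POZ domain. The gene group holds 31 genes, taken by symbol from both deposited tables, where all 31 were found among 21751 and 24054 genes. It was divided by known function into 12 S phase genes and 19 mitotic genes. Zbtb17 is the gene for Miz1, a zinc finger factor that binds DNA, and the POZ domain of Miz1 mediates contacts with other proteins. Each knockout group was compared with Cre-negative samples of the same floxed genotype: 3 Miz1 knockout (Miz1fl/fl, AlbCre positive) with 3 Miz1 floxed (Miz1fl/fl, AlbCre negative) tumour samples, and 3 Miz1(POZ) knockout (Miz1(POZ)fl/fl, AlbCre positive) with 3 Miz1(POZ) floxed (Miz1(POZ)fl/fl, AlbCre negative) samples. Every mouse was on the C57BL/6 background, had received diethylnitrosamine at 25 mg/kg in week 2 after birth and then carbon tetrachloride at 0.5 ml/kg every week, and was killed at 5 months of age. The albumin promoter drives Cre in hepatocytes, so cells of a tumour in which it was never active keep the floxed allele. The labels do not say whether the 3 samples of a group came from separate mice, so each p-value measures only the spread between these samples, which may be technical.

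Before S phase, the loaders Cdc6 and Cdt1 place the MCM helicase on replication origins, a step called licensing, and ribonucleotide reductase and thymidine kinase supply the nucleotides. Many of these genes are switched on by E2F transcription factors in late G1. Genes of G2 and mitosis peak later, and many are held off in resting cells by the DREAM complex and switched on by MYBL2 and FOXM1 through a CHR element, often next to CCAAT boxes bound by NF-Y. Most hepatocytes of an adult liver are out of the cell cycle, and these transcripts are widely used as a readout of dividing cells. In RNA from a whole tumour, fewer dividing cells and less RNA per dividing cell cannot be told apart.

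Promoter windows of 300 bases around the start site were taken from RefSeq (GRCm38.p6) for 26 of the 31 genes. Tpx2, Foxm1, Mcm4, Ccna2 and Aurkb had no entry. The windows were searched on both strands for the letters of the CHR, as TTTGAA or with a central C as TTCGAA, for the CCAAT box, and for the core letters of an E2F site. Core letters counted were TTCCCGC and the form TTCGCGC, and likewise TTGCCGC and the form TTGGCGC. An E2F core read in reverse as GCGCCAA can overlap a CCAAT box. The windows below are shown because they belong to the genes on which the results turn: Cdc20, Mki67 and Aurka of the mitotic group, and Mcm6, Mcm7 and Tk1 of the S phase group. All 6 genes lie on the minus strand and are printed 5′ to 3′ along the gene, with every searched motif in capitals. Motifs read on the opposite strand appear as their reverse complement.
Cdc20 (chr4:118437294-118437593): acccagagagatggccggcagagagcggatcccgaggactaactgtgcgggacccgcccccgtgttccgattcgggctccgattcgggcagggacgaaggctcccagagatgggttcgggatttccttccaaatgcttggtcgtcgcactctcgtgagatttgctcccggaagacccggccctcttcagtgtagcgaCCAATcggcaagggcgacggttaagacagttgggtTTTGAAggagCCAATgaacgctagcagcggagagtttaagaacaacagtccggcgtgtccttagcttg
Mki67 (chr7:135716330-135716629): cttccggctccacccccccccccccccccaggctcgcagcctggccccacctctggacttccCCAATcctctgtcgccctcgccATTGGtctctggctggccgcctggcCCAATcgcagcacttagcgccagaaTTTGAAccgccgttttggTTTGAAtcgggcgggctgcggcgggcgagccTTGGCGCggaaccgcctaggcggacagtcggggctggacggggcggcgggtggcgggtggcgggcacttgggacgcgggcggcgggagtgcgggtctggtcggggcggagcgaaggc
Aurka (chr2:172370521-172370820): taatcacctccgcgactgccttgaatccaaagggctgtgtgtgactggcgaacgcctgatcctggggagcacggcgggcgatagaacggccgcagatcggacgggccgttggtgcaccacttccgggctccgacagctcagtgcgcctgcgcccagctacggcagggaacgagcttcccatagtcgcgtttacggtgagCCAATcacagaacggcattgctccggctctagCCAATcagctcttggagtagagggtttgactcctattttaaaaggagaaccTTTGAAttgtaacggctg
Mcm6 (chr1:128359656-128359955): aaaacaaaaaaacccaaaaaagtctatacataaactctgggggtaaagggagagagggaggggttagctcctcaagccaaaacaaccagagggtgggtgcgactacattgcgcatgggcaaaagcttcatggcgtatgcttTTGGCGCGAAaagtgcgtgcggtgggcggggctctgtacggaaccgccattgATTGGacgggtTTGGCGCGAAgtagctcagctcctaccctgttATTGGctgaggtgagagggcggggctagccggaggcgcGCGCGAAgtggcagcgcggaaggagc
Mcm7 (chr5:138171834-138172133): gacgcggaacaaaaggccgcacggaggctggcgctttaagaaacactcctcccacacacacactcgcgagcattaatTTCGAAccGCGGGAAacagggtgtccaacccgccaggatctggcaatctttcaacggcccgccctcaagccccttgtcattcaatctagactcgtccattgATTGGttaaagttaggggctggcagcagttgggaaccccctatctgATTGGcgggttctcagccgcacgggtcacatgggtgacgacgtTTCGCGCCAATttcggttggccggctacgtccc
Tk1 (chr11:117825965-117826264): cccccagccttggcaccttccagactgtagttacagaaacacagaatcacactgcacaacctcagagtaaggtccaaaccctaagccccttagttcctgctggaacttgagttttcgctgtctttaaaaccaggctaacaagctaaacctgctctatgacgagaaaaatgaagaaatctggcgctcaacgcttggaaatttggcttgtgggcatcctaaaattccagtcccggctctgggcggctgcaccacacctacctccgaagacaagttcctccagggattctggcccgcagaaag

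The Cdc20 window held 1 CHR between its 2 CCAAT boxes. The Mki67 window held all 3 motifs, with 2 CHR copies, 3 CCAAT boxes and 1 E2F core, and the Aurka window 1 CHR and 2 CCAAT boxes. In Mcm6 there were 5 E2F cores, in overlapping pairs and alone, and 2 CCAAT boxes, with no CHR. The Mcm7 window shown also held all 3 motifs, with 3 E2F cores, 3 CCAAT boxes and 1 CHR. A further Mcm7 window, not shown, held 1 E2F core and 1 CCAAT box but no CHR, and a motif in either window was counted for the gene. No searched motif occurred in the Tk1 window. Across the mitotic genes with a window, 11 of 15 (73.3%) held a CHR, against 2 of 11 S phase genes (18.2%) and 19.2% of all 32851 RefSeq mouse windows. E2F cores showed the opposite split, with 3 of 15 mitotic genes (20.0%), 8 of 11 S phase genes (72.7%) and 9.57% of all windows. CCAAT was frequent in both groups, at 13 of 15 mitotic genes (86.7%) and 8 of 11 S phase genes (72.7%), with 37.4% of all windows. A match of letters is a description of the window and not a measured binding site.

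The Miz1 tumours were deposited as normalised reads, which are read counts divided by 1 factor per library. The recovered libraries held 30151700 to 76123000 reads in genes, and floxed replicate 3 was left out of that range. Values of the Miz1(POZ) tumours were deposited as FPKM, fragments scaled to gene length and library depth, and their depth is unknown. Units and normalisation differ between the tables, so values are compared within a table only. Zbtb17 was lower but still present in Miz1 knockout tumours, at 261, 271 and 267 normalised reads, against 323, 306 and 302 in floxed tumours. In the Miz1(POZ) tumours it had 2.55, 2.60 and 1.95 FPKM in knockout and 2.03, 2.46 and 1.82 FPKM in floxed samples, so a level over the whole gene does not tell these groups apart. Hepatocyte genes such as Alb were abundant in all 12 libraries.

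In the Miz1 tumours, 28 of the 31 genes were higher in knockout than in floxed samples on average, but none passed the test. Averages (of log2 values) were higher for 18 of 19 mitotic and 10 of 12 S phase genes, against 52.1% of all genes tested, and quantile normalisation turned Cdc6 to lower. The median log2 fold change was 0.69 for mitotic genes and 0.14 for S phase genes, against 0.0123 over all genes. Limma, a linear model that borrows the spread across genes, called 0 of 21751 genes (0.0%) at an adjusted p below 0.05, and 364 genes had an unadjusted p below 0.05. A count test with edgeR on the recovered reads of 5 libraries, chosen after the data were seen, also called 0 of 19414 genes, with 195 genes and 0 members at an unadjusted p below 0.05. The count of 28 fell to 17 without knockout replicate 1 and to 17 without floxed replicate 2. Without knockout replicate 1 the median was 0.14 for mitotic and -0.03 for S phase genes, and without floxed replicate 2 it was 0.08 and -0.06. The mitotic median was 1.16 without knockout replicate 2, 1.68 without floxed replicate 1 and 0.44 without floxed replicate 3. The S phase median was 0.31 and 0.28 without knockout replicates 2 and 3, and 0.35 and 0.27 without floxed replicates 1 and 3. In 17 of the 31 genes the fold change turned its sign in at least 1 fit that left out a library.

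The order of the libraries was shared by nearly all mitotic genes. Knockout replicate 1 and floxed replicate 1 were the highest pair of libraries for 18 of 19 mitotic genes and for 10 of 12 S phase genes. Counts of library order were not made over all genes. Deviations of these libraries from their group means correlated at 0.489 across all 21751 genes, so the order may not be particular to the members. Knockout replicate 1 was the highest library of all for 15 mitotic and 9 S phase genes. Floxed replicate 2 was the lowest for 14 mitotic and 9 S phase genes. Mki67, which codes for the proliferation marker Ki-67 on mitotic chromosomes, shows the pattern: it had 1583, 259.8 and 427 normalised reads in knockout tumours, against 1048, 84.4 and 236 in floxed tumours. The first sample of each group was several times above the others, and the groups overlapped.

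**Figure D1:**
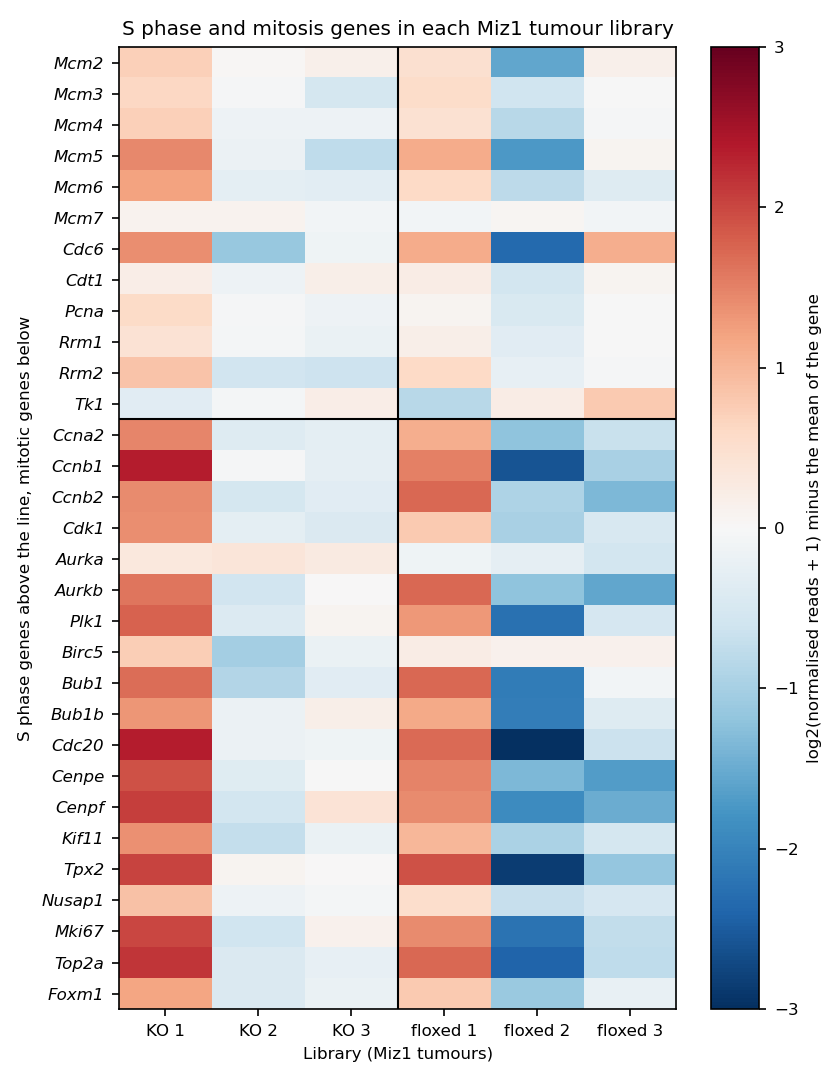
Heat map of the 31 genes (rows) in the 6 Miz1 tumour libraries (columns, knockout left), as log2(normalised reads + 1) minus the mean of each gene. Knockout 1 and floxed 1 are red for most mitotic genes and floxed 2 is blue, while Aurka and Mcm7 vary little and Tk1 runs the other way.

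A mean deviation over the 19 mitotic genes put the libraries in the same order. On the log2 scale it was 1.583, -0.387 and -0.087 in knockout tumours, against 1.212, -1.578 and -0.743 in floxed tumours. For the 12 S phase genes the deviations were 0.66, -0.208 and -0.196 in knockout tumours and 0.373, -0.764 and 0.135 in floxed tumours. Both gene groups were highest in knockout replicate 1 and floxed replicate 1 and lowest in floxed replicate 2, and the mitotic genes spread over a wider range. Floxed replicate 3 was below 0 for mitotic and above 0 for S phase genes. The mitotic deviation minus the S phase deviation was 0.923, -0.179 and 0.109 in knockout samples and 0.839, -0.814 and -0.878 in floxed samples, and these values overlapped between the groups.

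**Figure D2:**
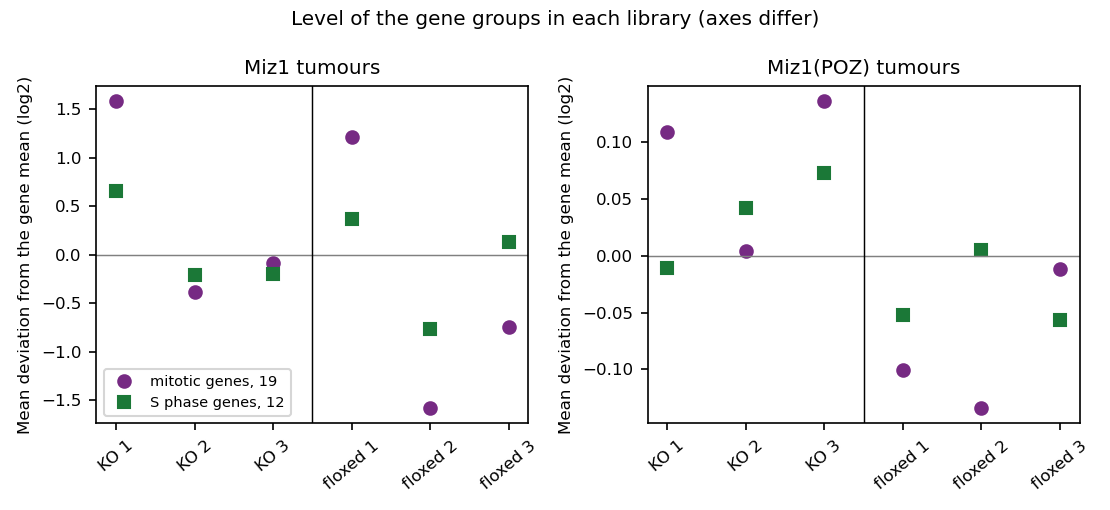
Mean deviation from the gene mean (log2, y axis) of the 19 mitotic genes (circles) and the 12 S phase genes (squares) in each library, with Miz1 tumours left and Miz1(POZ) tumours right on their own axes. Knockout 1 (1.583) and floxed 1 (1.212) stand above the other Miz1 libraries, and the Miz1(POZ) values, on a scale that compresses low FPKM, stay between -0.134 and 0.136.

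The range between libraries was wider among mitotic than among S phase members. Highest over lowest library was a median of 11.88-fold among mitotic genes, running from 1.882-fold in Aurka to 63.67-fold in Cdc20. Among S phase genes the median was 2.875-fold, running from 1.142-fold in Mcm7 to 24.36-fold in Cdc6. Among 50 other mitotic and 44 other S phase genes, listed by function, the medians were 5.319-fold and 2.394-fold. Levels differed between genes too, and their part in the range was not tested. The widest ratios rest on few reads in floxed replicate 2. Cdc20 had 115 reads in knockout replicate 1 and 2 in floxed replicate 2, a ratio with an exact 95% counting interval of 17.2 to 532. Cdc6 had 22 reads and 1 read in the same libraries, with an interval of 3.94 to 1010. Such intervals cover counting error only.

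**Figure D3:**
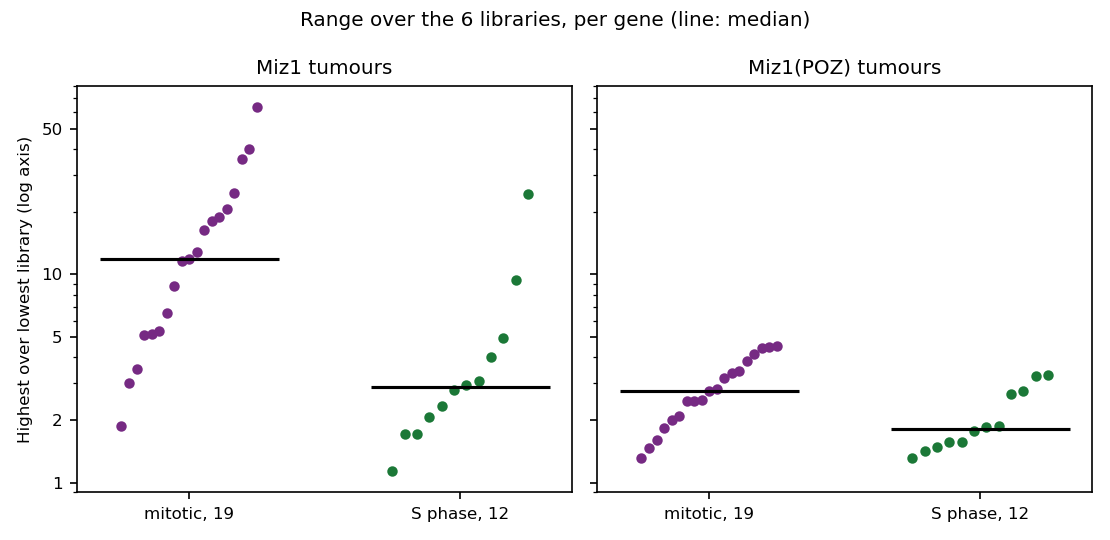
Highest over lowest library (log axis) for each gene, sorted within the mitotic and S phase groups, in Miz1 (left) and Miz1(POZ) tumours (right), with a line at the median. The medians are 11.88 and 2.875 in Miz1 tumours and 2.75 and 1.817 in Miz1(POZ) tumours.

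Licensing genes are described first. Mcm2 to Mcm7 encode the subunits of the replicative helicase. Mcm2 had 246, 151 and 166 normalised reads in knockout tumours and 209, 49.8 and 166 in floxed tumours, with floxed replicate 2 alone far below the rest. Mcm6 had 498, 177 and 174 in knockout tumours and 327, 124 and 165 in floxed tumours. Mcm2 and Mcm6 were the S phase genes that exceeded the floxed sample of the same replicate number in every pair, by as little as 1.00248-fold for Mcm2. Mcm5 varied 9.37-fold, from 152 in knockout replicate 1 down to 16.2 in floxed replicate 2. Mcm3 and Mcm4 had knockout means of 149 ± 60.3 and 154 ± 57.5, against floxed means of 145 ± 56.9 and 130 ± 54.4 (SD, n = 3 each).

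Mcm7 stood apart from the other helicase subunits by its constancy. It had 483, 483 and 423 normalised reads in knockout tumours and 426, 468 and 429 in floxed tumours, and its log2 fold change was 0.07 ± 0.14 (SE). Its exons share 321 of 4426 annotated bases with Ap4m1 on the other strand and contain Mir25 and Mir93. The sources used here do not say whether counting used strand. Of the 31 genes, 8 share exon bases with another annotated gene, and Ccna2 shares the most, 12.5% of its exon bases with Exosc9.

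The loaders were low. Cdc6 had 26.4, 3.80 and 8.64 normalised reads in knockout tumours, against 21.6, 1.08 and 21.2 in floxed tumours. Cdt1 had 69.5, 54.5 and 68.6 in knockout tumours, against 70.8, 41.1 and 63.6 in floxed tumours. Pcna, the sliding clamp of DNA polymerase, had 663, 436 and 399 in knockout tumours, against 469, 321 and 437 in floxed tumours. Groups overlapped in each of these genes.

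Nucleotide synthesis genes did not follow 1 pattern. Rrm1, the large subunit of ribonucleotide reductase, had 453, 323 and 294 normalised reads in knockout tumours and 377, 263 and 334 in floxed tumours. Rrm2, its small subunit, had 345, 127 and 123 in knockout tumours and 284, 159 and 185 in floxed tumours, with a log2 fold change of -0.21 ± 0.46 (SE). Tk1, the cytosolic thymidine kinase, had 409, 494 and 594 in knockout tumours, against 289, 595 and 891 in floxed tumours. Tk1 was lowest in floxed replicate 1, 1 of the libraries in which most other members were high, and highest in floxed replicate 3. Its log2 fold change was -0.12 ± 0.41 (SE).

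The cyclins and their kinase mostly followed the library order of the mitotic genes. Ccnb1, the main mitotic cyclin, had 129, 24.1 and 20.2 normalised reads in knockout tumours, against 72.0, 3.25 and 12.1 in floxed tumours. Ccna2, a cyclin of S phase and G2, had 176, 48.2 and 51.8 in knockout tumours and 136, 27.0 and 39.4 in floxed tumours. Cdk1, the kinase that both cyclins activate, had 196, 59.6 and 53.7 in knockout tumours and 128, 36.8 and 52.5 in floxed tumours. These 3 genes were higher in the knockout sample of every same-numbered pair, while the unpaired groups overlapped. Ccnb2 did not share this, with 135, 34.2 and 39.4 in knockout tumours, against 169, 26.0 and 19.2 in floxed tumours.

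Aurka, the kinase that matures centrosomes and the spindle, was the exception among mitotic genes. It had 169, 175 and 165 normalised reads in knockout tumours, against 124, 113 and 92.9 in floxed tumours. All knockout samples lay above all floxed samples, and replicate 1 did not stand out in either group. The means were 169.6 ± 4.95 in knockout and 109.7 ± 15.5 in floxed tumours (SD, n = 3 each). Its log2 fold change was 0.63 ± 0.19 (SE), with an unadjusted p of 0.01399 and an adjusted p of 0.9998 by limma. Aurka was the 1 member with groups that did not overlap upward, against 2.57% of all genes, and 0 members did so downward, against 3.05%. It was also the 1 member with an unadjusted p below 0.05 and a higher knockout mean, against 0.786% of all genes. A count of 1 among 31 is no result about the whole group.

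The other kinases and the chromosomal passenger subunits varied with the libraries. Plk1, which drives mitotic entry and exit, had 67.1, 13.9 and 20.2 normalised reads in knockout tumours and 48.0, 3.25 and 13.1 in floxed tumours. Aurkb, the kinase of the chromosomal passenger complex, had 44.3, 8.87 and 13.9 in knockout tumours and 48.0, 5.41 and 4.04 in floxed tumours. Birc5, which encodes survivin of the same complex, had 88.7, 25.3 and 45.6 in knockout tumours and 61.2, 57.3 and 57.6 in floxed tumours. Its floxed samples were nearly equal and lay between the knockout samples. It was the 1 mitotic gene with a lower average in knockout tumours, at a log2 fold change of -0.32 ± 0.46 (SE).

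Checkpoint genes, which delay anaphase until chromosomes are attached, and Cdc20, the activator of the anaphase-promoting complex, were low in floxed replicate 2. Bub1 had 57.5, 8.87 and 13.4 normalised reads in knockout tumours and 58.8, 3.25 and 16.2 in floxed tumours. Bub1b had 113, 39.3 and 49.9 in knockout tumours and 98.3, 9.74 and 33.3 in floxed tumours. Cdc20 had 138, 22.8 and 23.5 in knockout tumours and 86.4, 2.16 and 16.2 in floxed tumours. Bub1 was thus nearly level within the first pair and below its floxed partner in the third, whereas Bub1b and Cdc20 were above theirs in all 3.

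Kinetochore and spindle genes included the largest log2 fold change of the members. It was 1.40 ± 1.24 (SE) for Tpx2, with an unadjusted p of 0.2993 by limma. Cenpf and Cenpe were at 1.29 ± 1.04 and 1.03 ± 0.997 (SE). With edgeR on 5 libraries, without floxed replicate 3, Tpx2, Cenpf and Cenpe were at 0.0838, 0.5106 and 0.2186. Cenpf, a large protein of the outer kinetochore, had 369, 58.3 and 114 normalised reads in knockout tumours, against 234, 22.7 and 30.3 in floxed tumours. Cenpe, a kinetochore motor, had 207, 41.8 and 53.7 in knockout tumours and 155, 20.6 and 16.2 in floxed tumours. Tpx2, which targets and activates Aurora A on the spindle, had 155, 39.3 and 37.4 in knockout tumours and 143, 4.33 and 16.2 in floxed tumours. In these 3 genes knockout replicates 2 and 3 were both above floxed replicates 2 and 3, and the first floxed sample was what made the groups overlap. Kif11, the motor that separates spindle poles, had 199, 45.6 and 66.2 in knockout tumours and 151, 39.0 and 52.5 in floxed tumours. Nusap1, a microtubule binder of the spindle, had 147, 71.0 and 75.3 in knockout tumours and 114, 48.7 and 55.5 in floxed tumours. Both were above the floxed sample of the same number in all 3 pairs.

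Top2a, the topoisomerase that untangles sister chromatids, had 611, 100.1 and 115 normalised reads in knockout tumours, against 452, 24.9 and 79.8 in floxed tumours. Foxm1, the transcription factor of the G2 and mitosis programme, had 83.9, 26.6 and 31.7 in knockout tumours and 63.6, 16.2 and 31.3 in floxed tumours. Both had their highest values in the samples numbered 1, as Mki67 did.

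Libraries were also compared in pairs by the replicate number in the labels, which do not say what a number stands for. Deviations of same-numbered samples from their group means correlated across genes at 0.489, 0.339 and 0.118. Deviations within a group cancel out, so these correlations are not independent of each other. The third knockout sample was closer to the second floxed sample, at 0.282, than to the third. Within these pairs, 15 of 19 mitotic genes but 2 of 12 S phase genes were higher in the knockout sample of all 3 pairs, which 13.3% of all genes were. The 4 mitotic genes that were not were Ccnb2, Aurkb, Bub1 and Birc5. Mki67 was 1.51-, 3.08- and 1.81-fold higher in knockout samples of pairs 1, 2 and 3. Cenpf was 1.58-, 2.57- and 3.77-fold higher. Cdc20 was 1.60-, 10.5- and 1.46-fold higher, and the second of these ratios rests on 18 and 2 reads, with an exact 95% counting interval of 2.52 to 93.7. Rrm2 by contrast was 1.21-, 0.797- and 0.667-fold of its floxed partner.

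**Figure D4:**
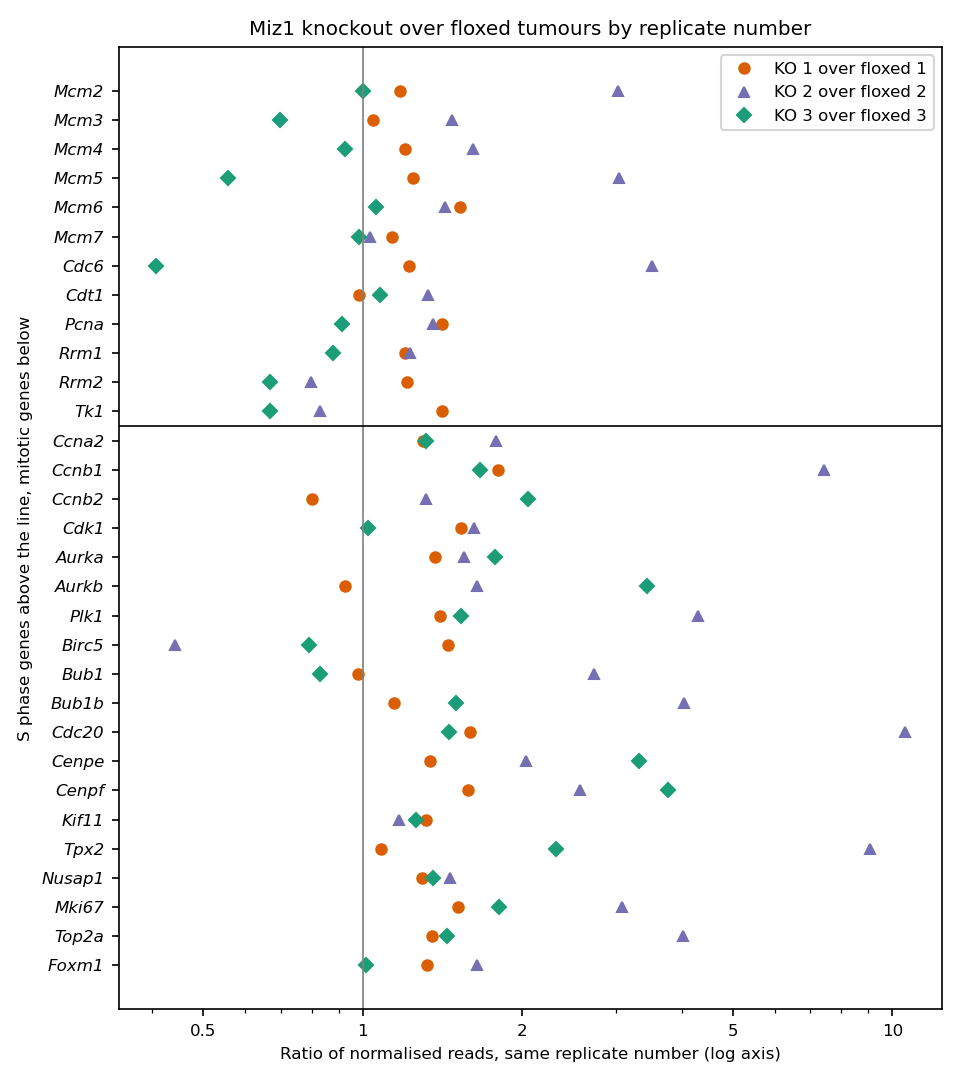
Normalised reads of each knockout sample over the floxed sample with the same number (log axis, line at equality), for 31 genes in Miz1 tumours. The third pair (diamonds) lies left of the line for 9 of 12 S phase genes and for Birc5 and Bub1 among the mitotic genes.

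A fit with the replicate number as a block gave 6 members an unadjusted p below 0.05 with higher knockout levels, against 2.52% of all genes, where the unblocked fit gave 1. They were Ccnb1, Aurka, Cenpe, Cenpf, Mki67 and Top2a, all mitotic. The paired log2 fold change was 1.02 ± 0.23 (SE) for Mki67 and 1.29 ± 0.29 (SE) for Cenpf. No member reached significance, as their adjusted p was 0.908 in the limma fit with the block, which called 0 genes while 1150 had an unadjusted p below 0.05. With both libraries numbered 1 left out, a comparison chosen after the data were seen, 28 of 31 genes were higher on average. The mitotic median was then 1.09 and the S phase median 0.10, against 0.0067 over all genes. The 4 libraries left are part of the main fit, so the count is no separate support. They include floxed replicate 2, and the main fit without that library had 17 members higher. Aurka, Cenpe, Cenpf and Tpx2 had an unadjusted p below 0.05 in that fit of 4 libraries, all with higher knockout levels. Of all 21747 genes tested, 571 had one with higher and 738 with lower knockout levels. The fit called 0 genes, with a smallest adjusted p of 0.239 by limma.

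Genes of macrophages and neutrophils moved with the same libraries. The summed level of 12 macrophage genes was 19105, 9177 and 8408 normalised reads in knockout tumours and 15441, 5698 and 7972 in floxed tumours, with 10 of 12 genes higher on average in knockout samples. Of the neutrophil genes 4 were measured, and they summed to 809.9, 112 and 96.0 in knockout tumours and 311, 76.8 and 70.7 in floxed tumours. None of the measured markers was at 0 in any library. Both sums were highest in the first sample of each group, as the mitotic deviation was. This was not particular to these cells, as the sums of B cell, erythroid and endothelial genes were also highest there. B cell genes summed to 233.6, 79.8 and 77.7 in knockout tumours and 128, 73.6 and 117 in floxed tumours. The sums of T and NK cell, stellate cell and hepatocyte genes did not have this order. The 6 cholangiocyte genes did not move together: Spp1 had 8525, 831 and 942 in knockout tumours and 6294, 1095 and 1562 in floxed tumours, high in both samples numbered 1. Krt19, a keratin of bile ducts, had 125, 21.5 and 7.68 in knockout tumours and 2.40, 36.8 and 53.5 in floxed tumours. Krt7, Epcam and Cftr were likewise highest in knockout replicate 1 and lowest among floxed samples in floxed replicate 1. The part of these cells in the mitotic levels was not tested.

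Other genes of the same pathways were listed by function, and are set beside the 52.1% of all genes that were higher on average in Miz1 knockout tumours and the 13.3% that were higher in all 3 pairs. Of 50 further mitotic genes, 47 were higher on average and 23 in all 3 pairs. Of 44 further S phase genes, 31 were higher on average and 6 in all 3 pairs, and the count of 6 is near the share of all genes. Knockout replicate 1 and floxed replicate 1 were the highest pair for 41 of the 50 mitotic and 22 of the 44 S phase genes. Limma called 0 of them, and 0 had an unadjusted p below 0.05. The smallest p among the S phase genes belonged to Prim1, the catalytic subunit of primase, E2f2, an activating E2F, and Ung, a uracil glycosylase. Prim1 had 109, 105 and 101 normalised reads in knockout tumours, against 97.1, 73.6 and 76.8 in floxed tumours, and the groups did not overlap. Ung had 237, 339.7 and 233 in knockout tumours and 162, 229 and 225 in floxed tumours, again without overlap. E2f2 had 113, 50.7 and 78.7 in knockout tumours and 74.4, 17.3 and 45.4 in floxed tumours.

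Among the further mitotic genes the smallest p belonged to Spc25, a kinetochore subunit, Mybl2, the MYB factor of the mitotic programme, and Smc4, a condensin subunit. Spc25 had 250, 264 and 247 normalised reads in knockout tumours, against 257, 111 and 184 in floxed tumours. Mybl2 had 28.8, 38.0 and 56.6 in knockout tumours and 25.2, 29.2 and 27.3 in floxed tumours. Smc4 had 1168, 886 and 769 in knockout tumours and 808, 677 and 787 in floxed tumours. Each of the 3 overlapped between the groups.

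In the Miz1(POZ) tumours most of the 31 genes were slightly higher in knockout than in floxed samples, and 18 of 19 mitotic genes averaged below 1 FPKM. With every gene above 0 kept, 26 of 31 were higher on average, against 51.9% of all 17418 genes tested. These were 17 of 19 mitotic and 9 of 12 S phase genes. Cdt1, Rrm2, Tk1, Cdk1 and Aurka were lower on average, and quantile normalisation turned Cdk1 to higher. The median log2 fold change, on the log2(FPKM + 1) scale that compresses low values, was 0.15 for mitotic and 0.11 for S phase genes. With a pseudocount of 0.1 it was 0.43 and 0.22, and the S phase median was 0.07 without floxed replicate 2. Limma called 0 genes (smallest adjusted p 0.116), and 1357 genes had an unadjusted p below 0.05.

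A filter at a mean of 1 FPKM removed most of the mitotic genes. In the filtered fit, 11201 genes were tested and 0 called (0.0%), with 976 at an unadjusted p below 0.05. The filter left 10 S phase genes and Mki67. Mcm7 was the 1 of these 11 with an unadjusted p below 0.05 and higher knockout levels, against 4.79% of the genes tested, and 1 gene is no result about the group. It had 4.98, 5.10 and 5.61 FPKM in knockout tumours, against 4.53, 4.14 and 3.57 FPKM in floxed tumours. The groups did not overlap, and the log2 fold change was 0.30 ± 0.12 (SE), with an unadjusted p of 0.03625 and an adjusted p of 0.533 by limma. Its unadjusted p was 0.05476 in the fit without the filter, and no member of the filtered fit had one below 0.05 with the replicate block or with scaling to column sums.

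Of the other licensing genes, Mcm3 had 1.62, 1.81 and 1.83 FPKM in knockout tumours, against 1.17, 1.51 and 1.46 FPKM in floxed tumours, without overlap. Mcm6 had 2.65, 2.25 and 2.57 FPKM in knockout tumours and 2.08, 2.01 and 2.51 FPKM in floxed tumours. Mcm2 had 1.13, 1.34 and 1.68 FPKM in knockout tumours and 0.71, 0.93 and 2.31 FPKM in floxed tumours, where the third floxed sample was the highest of all. Cdc6 was at 0.11 FPKM or below in every library. Pcna, the member with the highest mean FPKM, had 15.24, 18.69 and 19.16 FPKM in knockout tumours, against 16.34, 13.03 and 12.88 FPKM in floxed tumours.

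Among the nucleotide genes, Tk1 and Rrm2 were lower and Rrm1 was higher on average in knockout tumours. Tk1 had 6.14, 10.33 and 10.56 FPKM in knockout tumours, against 18.46, 14.05 and 5.63 FPKM in floxed tumours, and the floxed samples spanned the knockout samples on both sides. Rrm1 had 3.08, 2.96 and 3.10 FPKM in knockout tumours and 2.61, 3.01 and 2.19 FPKM in floxed tumours. Rrm2 had 3.19, 2.69 and 2.25 FPKM in knockout tumours and 1.90, 3.10 and 3.53 FPKM in floxed tumours.

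Among mitotic genes Cdc20 differed most between the Miz1(POZ) groups. Its level was 0.54, 0.63 and 0.68 FPKM in knockout tumours, against 0.15, 0.17 and 0.29 FPKM in floxed tumours. The means were 0.617 ± 0.0709 FPKM in knockout and 0.203 ± 0.0757 FPKM in floxed tumours (SD, n = 3 each). The log2 fold change was 0.43 ± 0.069 (SE) on the compressed scale, with an unadjusted p of 0.0006342 and an adjusted p of 0.3347 by limma. Cenpe had 0.30, 0.33 and 0.37 FPKM in knockout tumours and 0.17, 0.15 and 0.21 FPKM in floxed tumours. Ccna2 had 0.81, 0.78 and 0.88 FPKM in knockout tumours and 0.63, 0.57 and 0.55 FPKM in floxed tumours. None of these 3 genes overlapped between the groups.

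**Figure D5:**
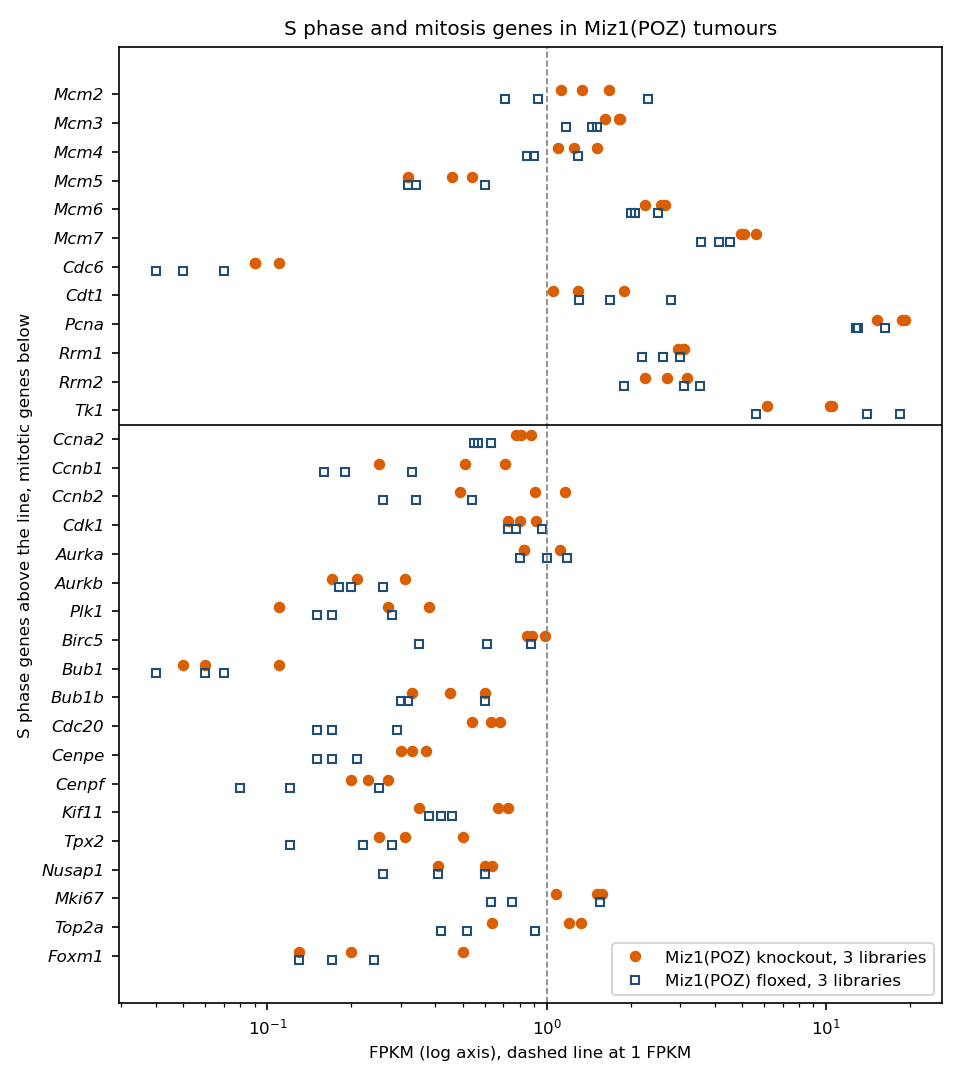
FPKM (log axis) of the 31 genes in Miz1(POZ) knockout (circles) and floxed (squares) tumours, with a dashed line at 1 FPKM. Most mitotic genes lie left of the line, and circles and squares separate for Cdc20, Cenpe, Ccna2, Mcm3, Mcm7 and Cdc6.

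Ccnb2 had 0.49, 0.91 and 1.16 FPKM in knockout tumours, against 0.54, 0.26 and 0.34 FPKM in floxed tumours, with 1 floxed sample inside the knockout range. Ccnb1 had 0.71, 0.25 and 0.51 FPKM in knockout tumours and 0.19, 0.16 and 0.33 FPKM in floxed tumours. Mki67 had 1.58, 1.08 and 1.51 FPKM in knockout tumours and 0.75, 0.63 and 1.55 FPKM in floxed tumours, with the third floxed sample as high as the knockout samples. The knockout means of all 3 of these genes were above the floxed means, but their groups overlapped. Top2a had 1.20, 0.64 and 1.33 FPKM in knockout tumours and 0.42, 0.52 and 0.91 FPKM in floxed tumours. Aurka, whose groups were apart in the Miz1 tumours, had 0.83, 1.12 and 0.83 FPKM in knockout tumours and 0.80, 1.18 and 1.00 FPKM in floxed tumours. Cdk1 had 0.92, 0.80 and 0.73 FPKM in knockout tumours and 0.73, 0.96 and 0.78 FPKM in floxed tumours. Group means of Aurka and Cdk1 differed by less than the SD within either group.

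Of the remaining mitotic genes, Birc5 had 0.89, 0.85 and 0.99 FPKM in knockout tumours, against 0.61, 0.35 and 0.88 FPKM in floxed tumours. Tpx2 had 0.50, 0.25 and 0.31 FPKM in knockout tumours and 0.22, 0.12 and 0.28 FPKM in floxed tumours. Kif11 had 0.67, 0.35 and 0.73 FPKM in knockout tumours and 0.38, 0.46 and 0.42 FPKM in floxed tumours. Aurkb, Plk1, Bub1, Bub1b, Cenpf, Nusap1 and Foxm1 overlapped between the groups as well, and each stayed at 0.64 FPKM or below.

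Counted over all 31 genes of the Miz1(POZ) tumours, 6 had knockout samples all above floxed samples, against 6.68% of all genes, and 0 had them all below, against 5.75%. They were Mcm3, Mcm7, Cdc6, Ccna2, Cdc20 and Cenpe. At a mean between 0.05 and 1 FPKM, a range chosen after the data were seen, 4 of 20 members lay fully above, against 4.25% of 4096 genes. In the same range 18 of 20 were higher on average, against 44.1% of genes. An unadjusted p below 0.05 with higher knockout levels was reached by 4 members, Ccna2, Ccnb2, Cdc20 and Cenpe, against 3.99% of all genes. Leaving out 1 library gave 2 to 8 members an unadjusted p below 0.05, counted in either direction. There were 8 without floxed replicate 3, where 1743 of 17223 genes had one. Without knockout replicate 3 there were 2, with 1597 of 17232 genes. Without floxed replicate 2 there were also 2, with 1094 of 17273 genes. No member was called in any of these fits.

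In the Miz1(POZ) tumours, highest over lowest library had a median of 2.75-fold among mitotic and 1.817-fold among S phase genes. The mean deviation of the mitotic genes was 0.109, 0.004 and 0.136 in knockout tumours, against -0.101, -0.134 and -0.012 in floxed tumours. The groups did not overlap in this mean, but knockout replicate 2 and floxed replicate 3 were 0.004 and -0.012. The scale compresses low values, and with a pseudocount of 0.1 the deviations were 0.291, 0.0 and 0.374 in knockout tumours, against -0.25, -0.384 and -0.031 in floxed tumours. For S phase genes it was -0.011, 0.042 and 0.073 in knockout tumours and -0.052, 0.005 and -0.057 in floxed tumours, with overlap. Macrophage genes summed to 289.8, 295 and 184 FPKM in knockout tumours and 172, 237 and 315 FPKM in floxed tumours, with 10 of 12 higher on average in knockout samples. Their order of libraries was not that of the mitotic genes, whose highest deviation, in knockout replicate 3, came with the second-lowest macrophage sum. The 4 measured neutrophil genes summed to 38.9, 22.4 and 9.48 FPKM in knockout tumours and 6.29, 6.02 and 23.0 FPKM in floxed tumours, and all 4 were higher on average in knockout samples. Like the mitotic deviation, this sum was lowest in floxed replicates 1 and 2. Unlike it, the sum was lowest among knockout samples in replicate 3, and floxed replicate 3 was above knockout replicate 2. The part of these cells in the mitotic levels was not tested.

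In the lists of related genes, 39 of 50 further mitotic and 33 of 44 further S phase genes were higher on average in Miz1(POZ) knockout tumours, against 51.9% of all genes. With the filter at 1 FPKM, 12 and 23 of them were tested, of which 6 and 16 were higher on average, against 55.7% of all genes in that fit. Limma called 0 of them. With the filter, Gins1 and Fen1 upward and Ccne1 and Spc25 downward had an unadjusted p below 0.05, against 4.79% and 3.92% of all genes. Without it, 4 of 44 further S phase and 6 of 50 further mitotic genes had one upward, against 3.99% of all genes. Downward, 1 and 2 had one, against 3.8%. Shcbp1 had the smallest p without the filter, at 0.39, 0.24 and 0.38 FPKM in knockout tumours and 0, 0 and 0.04 FPKM in floxed tumours. Fen1, the flap endonuclease, had 2.43, 2.18 and 1.66 FPKM in knockout tumours, against 1.07, 1.37 and 1.15 FPKM in floxed tumours. Gins1, a subunit of the replicative helicase complex, had 2.13, 2.28 and 1.83 FPKM in knockout tumours and 0.99, 1.79 and 1.21 FPKM in floxed tumours. Both were apart between the groups.

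Ccne1, the G1/S cyclin E, went the other way, with 0.97, 0.95 and 1.15 FPKM in knockout tumours, against 1.92, 2.98 and 4.33 FPKM in floxed tumours. Its log2 fold change was -0.97 ± 0.22 (SE), with an unadjusted p of 0.003295 and an adjusted p of 0.3607 by limma. Spc25 had 2.60, 2.25 and 4.15 FPKM in knockout tumours, against 8.67, 7.76 and 5.78 FPKM in floxed tumours, at a log2 fold change of -1.08 ± 0.21 (SE) and an adjusted p of 0.3485 by limma. Ncapd2, a condensin subunit, had 1.27, 1.22 and 1.08 FPKM in knockout tumours and 0.78, 0.73 and 1.00 FPKM in floxed tumours. Lmnb1, which encodes lamin B1, had 2.89, 1.87 and 1.78 FPKM in knockout tumours and 1.73, 1.77 and 1.49 FPKM in floxed tumours. In Spc25 and Ccne1 every knockout sample lay below every floxed sample, against the direction of most genes of their lists.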

How the data were processed

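RNA of 12 liver tumour samples was sequenced from TruSeq libraries, per the labels. The submitters' processing notes name mm10, an aligner (Bowtie2 2.2.6), a trimmer (Trimmomatic 0.36), the quantifier RSEM 1.1.17, and DESeq2 1.16.1 and edgeR 3.18.1, without saying which table each made. Values of the Miz1 table were deposited as normalised signal: each column is a set of read counts scaled by 1 factor, and 100% of values in 5 of 6 columns were whole multiples of 1 read (tolerance 0.01). Its 4 entries that name no gene hold 38.0% to 50.8% of those columns and were left out of tests. The Miz1(POZ) table deposited by the authors holds FPKM.

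Within each table, limma 3.58.1 in R 4.3.3 (moderated variances with a trend) was fitted to log2(value + 1) for genes whose mean was 1 or more, with Benjamini-Hochberg adjustment over all genes tested and a threshold of 0.05. For Miz1(POZ) members the fit without the filter is given too. The added 1 makes fold changes of low genes too small. Recovered reads were tested with edgeR 4.0.16. The tests were also run on simulated data with independent noise for each gene. That simulation does not cover deviations shared by many genes of a library, as seen here. The members and the gene lists were chosen with earlier results of these data known. All members are described, and of each further list the 3 genes of smallest p in the filtered fit are named in each comparison. Genes whose groups do not overlap have all knockout values on 1 side of all floxed values.

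Titles of the samples give the replicate numbers. For Miz1 libraries, the deviations of same-numbered libraries from their group means correlated across genes at 0.489, 0.339 and 0.118. These correlations are not independent, as deviations within a group cancel out. A paired fit is given beside the unpaired fit, although the labels name no pairs. Gene overlaps are from GENCODE M21 and promoter windows from RefSeq on GRCm38.p6. Alternatives were another pseudocount, filter, scaling or prior, a paired fit, and each library left out in turn. Figures were drawn with matplotlib 3.10.9.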

Additional observations from a re-analysis of the deposited data

How the results depend on the processing

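Within each table the count of genes called and, for each of the 31 members, the side of the adjusted threshold were the same under another pseudocount, other filters, other scalings, a prior variance without trend and the replicate block, at 0 genes called. Leaving out 1 library left the count at 0 in the Miz1 tumours and gave 0 to 4 in the Miz1(POZ) tumours, none of them a member. Members higher on average numbered 17 to 30 in the Miz1 tumours when 1 library was left out. With the replicate block, the paired fit of the Miz1 tumours gave 6 members an unadjusted p below 0.05 in place of 1. In the Miz1(POZ) tumours the correlations of same-numbered libraries were -0.093, 0.23 and 0.175, and knockout replicate 2 was closer to floxed replicate 1, at 0.249. The paired fit of these tumours gave 3 members in place of 4, and 744 genes upward in place of 695. At a pseudocount of 0.1 the Miz1(POZ) medians were 0.22 for S phase and 0.43 for mitotic genes, and the S phase median was 0.070 to 0.15 with 1 library left out. The fold change turned its sign when 1 library was left out for 17 Miz1 genes, with ranges of -0.021 to 1.00 for Mcm2, -0.27 to 0.32 for Mcm3, -0.071 to 0.57 for Mcm4, -0.43 to 0.99 for Mcm5, -0.10 to 0.79 for Mcm6, -1.05 to 0.68 for Cdc6, -0.071 to 0.31 for Cdt1, -0.059 to 0.25 for Rrm1, -0.69 to 0.044 for Rrm2, -0.56 to 0.25 for Tk1, -0.075 to 1.20 for Ccna2, -0.26 to 1.31 for Ccnb2, -0.15 to 0.95 for Cdk1, -0.77 to 0.12 for Birc5, -0.66 to 1.25 for Bub1, -0.30 to 0.89 for Kif11 and -0.14 to 0.85 for Foxm1. It did so for 10 Miz1(POZ) genes, with ranges of -0.091 to 0.39 for Mcm2, -0.027 to 0.11 for Mcm5, -0.22 to 0.098 for Rrm2, -0.045 to 0.049 for Cdk1, -0.12 to 0.019 for Aurka, -0.028 to 0.054 for Aurkb, -0.014 to 0.14 for Plk1, -0.0022 to 0.038 for Bub1, -0.012 to 0.15 for Bub1b and -0.018 to 0.19 for Foxm1. Quantile normalisation turned Cdc6 to -0.13 in the Miz1 and Cdk1 to 0.017 in the Miz1(POZ) tumours. With edgeR on 5 libraries, which leaves out floxed replicate 3, Tk1 was 0.18, Ccnb2 -0.47, Aurkb -0.25 and Bub1 -0.21. The cause of these reversals was not tested. The cut at a mean of 5 left 2 members of the Miz1(POZ) table. Low reads limit the Miz1 ratios of Cdc20, Ccnb1, Plk1, Bub1, Cdc6 and Tpx2, with 1 to 4 reads in floxed replicate 2, and the unknown depth of the FPKM values allows no interval for the low Miz1(POZ) levels.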
